A study of Mus musculus with 53 samples.

Results

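Tumours from LMO1 transgenic mice that carried an added Olig transgene by their labels were compared with tumours from mice with the LMO1 transgene alone. The members were chosen by the genotype label: 3 arrays labelled as olig1 together with LMO1 and 3 labelled as LMO1 transgenic, 6 of the 53 arrays of the series. The titles of the first 3 arrays name olig2 in place of olig1, so which Olig gene was introduced is not settled by the labels. They are called Olig-labelled tumours here. All 6 samples were T-cell lymphoblasts of C57BL/6 mice, from untreated tumours classed as TLX1 negative, and both groups share the LMO1 transgene. The other 47 arrays held T-cell tumours of 13 other genetic backgrounds and served as a frame for the levels. Ages, the promoters driving the transgenes and the number of animals are not given in the sources used here. A limma p-value sets a difference against scatter pooled over all 53 arrays, unless a smaller fit is named. It thus does not measure the scatter of the 3 against 3 arrays alone. That scatter is one of samples and may be technical.

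LMO1 is a LIM-only protein that binds no DNA by itself and bridges transcription factors in a complex with LDB1, the basic helix-loop-helix protein TAL1 or a relative, and E proteins such as E2A. OLIG1 and OLIG2 are basic helix-loop-helix factors of the oligodendrocyte lineage that bind E-box sequences, and OLIG2 was found at a chromosomal translocation in human T-cell leukaemia. In thymocytes, E proteins drive genes of T-cell development, and Notch signalling drives early T-lineage growth.

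The LMO1 transgene was visible on the arrays and the Olig transgene was not. On the log2 scale of signal intensity, used for all levels below, Lmo1 read 13.34, 12.32 and 13.19 in replicates 1, 2 and 3 of the Olig-labelled tumours and 13.16, 12.44 and 13.13 in replicates 1, 2 and 3 of the LMO1 tumours, and levels are given in that order throughout. The groups overlapped, and both lay above the other 47 arrays, which ran from 7.15 to 9.72 with a median of 8.01. The difference in Lmo1 was 0.04 ± 0.31 (Olig-labelled minus LMO1, ± SE, n = 3 and 3, limma adjusted p = 0.9998). Olig1 read 7.39, 7.34 and 7.35 against 7.41, 7.29 and 7.30, a difference of 0.02 ± 0.08. Olig2 read 7.31, 7.34 and 7.43 against 7.25, 7.35 and 7.40, a difference of 0.03 ± 0.09, and neither Olig gene passed the filter on low signal. Whether the Olig probe sets cover the transcript of the transgene was not tested, so this comparison rests on the labels.

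All 6 arrays carried strong signal of several T-lineage genes. Thy1, a surface protein of T cells, read between 12.86 and 13.54, Cd3d between 12.50 and 13.22, and Bcl11b, a factor of T-lineage commitment, between 11.80 and 12.35. Other T-lineage genes read lower, Cd7 between 8.21 and 8.78 and Cd5 between 7.74 and 10.45. The array medians ran from 441.3 to 455.2 intensity units. Over the 9156 genes that passed the filter, Pearson correlations ran from 0.9331 to 0.9494 among the Olig-labelled tumours and from 0.9505 to 0.9637 among the LMO1 tumours. Between the groups they ran from 0.9203 to 0.9457. These are a description across genes, which are not independent replicates. Olig-labelled replicate 1 was nearest to LMO1 replicate 1 (0.9421) and Olig-labelled replicate 3 to a Pokemon tumour (0.9556), rather than to their own group. In the latter the mean log2 signal of the 18 hybridization control probe sets was 9.43, against 10.77 to 11.18 in the other 5 arrays. LMO1 replicate 2 had the highest excess of 3′ over 5′ signal of the beta-actin control, a measure of RNA integrity, with a log2 ratio of 0.83. That ratio was 0.148 ± 0.071 (SD, n = 3) in the Olig-labelled tumours and 0.474 ± 0.305 (SD, n = 3) in the LMO1 tumours (exact permutation test, two-sided, p = 0.1, the smallest that 3 against 3 allows). Olig-labelled replicate 2 also had an Xist level of 7.63 and an Eif2s3y level of 9.74, where the other 5 arrays read 11.66 to 12.48 and 6.61 to 6.81. Of these array differences, only the beta-actin ratio was added to the model, which left 3 genes called higher and 10 lower. The part of the others in the results below was not tested.

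Of 9156 genes tested, 8 were higher (0.0874%) and 20 were lower (0.218%) in the Olig-labelled tumours at an adjusted p under 0.05 in limma, with the spread estimated over all 53 arrays. Of these 28 genes, 19 differed by 2-fold or more, 5 upwards and 14 downwards. The 3 values of one group did not overlap the 3 of the other for 27 of the 28. Groups without overlap were also common among all genes, at 656 higher (7.16%) and 809 lower (8.84%). These calls depend on the pooled spread. In a fit on the 6 arrays alone, none of the 28 was called, no gene was called higher, and only Slc15a2 was called lower (0.0109%), with 900 genes at an unadjusted p under 0.05. The numbers called higher and lower were 2 and 6 without Olig-labelled replicate 1, 1 and 4 without replicate 2, 1 and 10 without replicate 3, 6 and 26 without LMO1 replicate 1, 3 and 7 without LMO1 replicate 2, and 3 and 9 without LMO1 replicate 3. Adam19 and Numb were called in all 6 of these fits. For each called gene below, the number of these fits that called it, or the arrays without which its call was lost, is given.

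**Figure D1:**
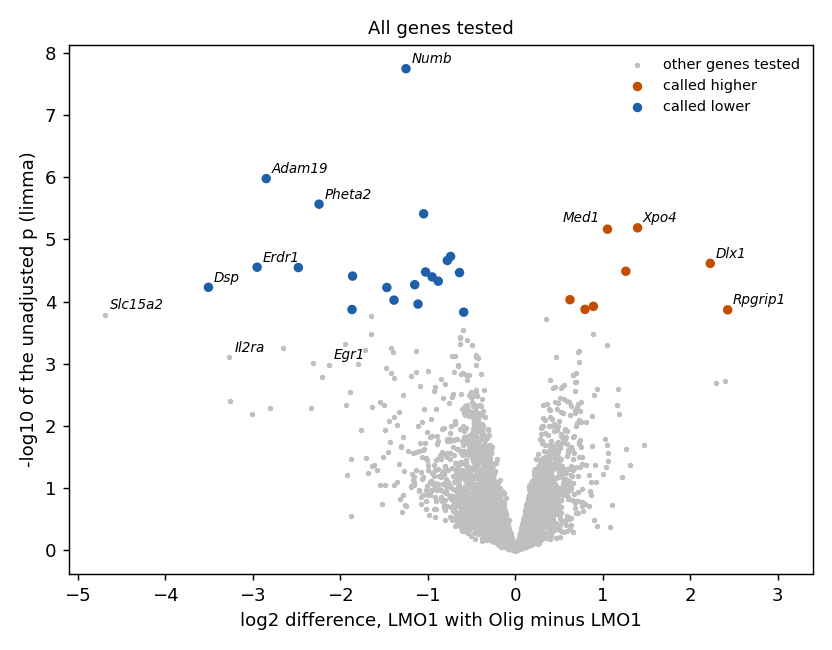
Each point is 1 of the 9156 genes tested, with the log2 difference (Olig-labelled minus LMO1 tumours) on the horizontal axis and −log10 of the unadjusted limma p on the vertical axis. The 8 genes called higher are orange and the 20 called lower are blue, and Numb has the lowest p although Slc15a2, which was not called, has the largest difference.

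Of the 8 genes that were higher, Dlx1 had the largest difference without overlap. Dlx1, a homeobox transcription factor, read 10.28, 9.10 and 8.997 in the Olig-labelled tumours and 7.09, 7.18 and 7.41 in the LMO1 tumours. All 3 Olig-labelled values lay above the LMO1 values, which sat near the median of the other 47 arrays (7.37). Dlx1 was higher by 2.23 ± 0.47, or 4.69-fold (adjusted p = 0.0223), and was called in 1 of the 6 fits with 1 array left out (adjusted p 0.0286 to 0.159). Other backgrounds reached this level too: 15 of the other 47 arrays reached the lowest of the 3 Olig-labelled values and the TLX1 with RUNX heterozygous tumours held the highest, 11.37.

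Xpo4, a nuclear transport receptor, read 10.16, 10.63 and 10.59 against 8.83, 9.13 and 9.23. The Olig-labelled values were at the top of the whole series, where 3 of the other 47 arrays reached the lowest of them. Xpo4 was higher by 1.40 ± 0.27 (adjusted p = 0.0104), and the call was lost without Olig-labelled replicate 2 or 3 (adjusted p up to 0.0677). Med1, a subunit of the Mediator complex that links transcription factors to RNA polymerase, read 11.14, 11.60 and 11.78 against 10.61, 10.26 and 10.48. It was higher by 1.06 ± 0.21 (adjusted p = 0.0104, called in 3 of the 6 fits with 1 array left out), but its 5 other probe sets differed by −0.15 to 0.55.

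Gfra1, a co-receptor for the growth factor GDNF, read 10.35, 9.16 and 9.66 against 8.86, 8.42 and 8.09. It was higher by 1.27 ± 0.27 (adjusted p = 0.0223, called in 2 of the 6 fits with 1 array left out), and its other probe set differed by 1.85. Smaller rises followed in Dcun1d1, a factor of cullin neddylation (0.89), in Defa3, an alpha-defensin of a multigene family whose members the probe set may not separate (0.80), and in Metap1d, a mitochondrial methionine aminopeptidase (0.63). Of the 6 fits with 1 array left out, 1, 0 and 1 called them. The other probe sets of Dcun1d1 differed by −0.18 to 0.37 and that of Metap1d by 0.48. Rpgrip1, a protein of the photoreceptor cilium, was also called, with 13.09, 13.34 and 12.26 against 8.43, 12.57 and 10.39. Its groups overlapped, its 3 other probe sets differed by −0.12 to 0.13, and 1 of the 6 fits called it. Csnk2a1, a catalytic subunit of casein kinase, differed by 1.05 ± 0.28 without overlap and did not pass (adjusted p = 0.113), and its 5 other probe sets differed by −0.06 to 0.16.

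The largest differences among the called genes were in genes that were lower. Numb, an endocytic adaptor that antagonises Notch, had the lowest p of the comparison. It read 7.68, 8.54 and 8.80 in the Olig-labelled tumours and 9.53, 9.59 and 9.65 in the LMO1 tumours. The 3 Olig-labelled values lay below all of the other 47 arrays, the lowest of which was 8.83. Numb was lower by 2.37-fold (log2 difference −1.25 ± 0.18, adjusted p = 0.000164) and was called in 6 of 6 fits with 1 array left out (adjusted p 7.64e-06 to 0.00666). Its other probe set differed by 0.02 ± 0.16, so the difference rests on 1 of 2 probe sets.

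Adam19, a membrane metalloprotease that sheds growth factors, read 8.99, 8.66 and 8.82 against 12.54, 11.07 and 11.40. The LMO1 values were among the highest of the series, with 7 of the other 47 arrays at or above the lowest of them. Adam19 was lower by 7.19-fold (log2 difference −2.85 ± 0.50, adjusted p = 0.00481), its other probe set differed by −2.14, and all 6 fits with 1 array left out called it (adjusted p 0.00291 to 0.0314). Pheta2, an endosomal protein, read 8.08, 7.16 and 7.26 against 9.51, 9.57 and 10.14. Here too the LMO1 tumours stood apart, since 1 of the other 47 arrays reached their lowest value. Pheta2 was lower by 4.73-fold (−2.24 ± 0.41, adjusted p = 0.00827), and the call was lost without Olig-labelled replicate 2 or LMO1 replicate 3 (adjusted p up to 0.052).

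Dsp, desmoplakin, which anchors intermediate filaments to desmosomes, showed the largest difference among the called genes. It read 7.42, 7.11 and 7.33 against 11.89, 10.90 and 9.58, and was lower by 11.4-fold (−3.51 ± 0.78, adjusted p = 0.0272). Its 2 other probe sets differed by −3.53 and −0.46. The Olig-labelled values lay near the median of the other 47 arrays (7.58), and 10 of those arrays reached the lowest LMO1 value. Of the 6 fits with 1 array left out, 1 called Dsp (adjusted p 0.0329 to 0.208).

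Erdr1 read 8.72, 9.06 and 10.64 against 12.99, 12.06 and 12.23, and was lower by 7.72-fold (−2.95 ± 0.63, adjusted p = 0.0223). The median of the other 47 arrays was 12.48, close to the LMO1 tumours, and 1 of the 6 fits with 1 array left out called it. Atp8a2, a phospholipid flippase, read 7.63, 9.63 and 7.67 against 10.97, 10.02 and 11.37. Olig-labelled replicate 2 sat close to the LMO1 values, and the gene was lower by 5.58-fold (−2.48 ± 0.53, adjusted p = 0.0223), with calls in 2 of the 6 fits. Glrx, glutaredoxin, which reduces protein disulfides with glutathione, read 8.55, 9.23 and 8.70 against 10.40, 10.78 and 10.88. The Olig-labelled tumours were the ones apart, since 3 of the other 47 arrays were as low, and Glrx was lower by 3.63-fold (−1.86 ± 0.40, adjusted p = 0.0229). Its other probe set differed by −0.97, and 1 of the 6 fits called it.

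Parm1, a mucin-like membrane protein, was lower by 3.64-fold (−1.87 ± 0.44, adjusted p = 0.0461), with −1.91 in its other probe set and calls in 1 of the 6 fits with 1 array left out. Sidt1, a membrane protein related to RNA transporters, was lower by 2.76-fold, with −0.31 in its other probe set. B4galt1, a galactosyltransferase of glycoprotein synthesis, was lower by 2.22-fold, and Rps6kl1, a kinase-like protein, by 2.06-fold. These 3 were called in 2, 2 and 3 of the 6 fits. Tnnt3, fast skeletal muscle troponin T, was lower by 2.61-fold (−1.39 ± 0.32, adjusted p = 0.0395) and was called in 1 of the 6 fits. Its values are given with the other muscle genes below.

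**Figure D2:**
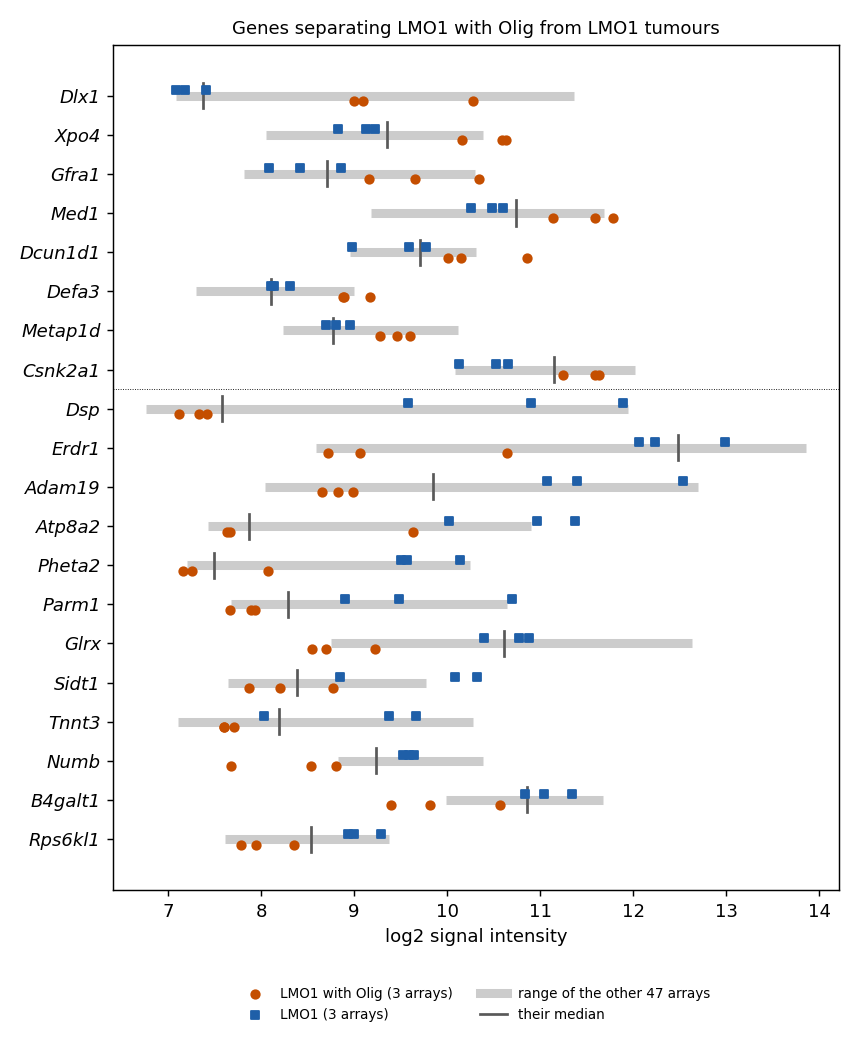
Levels of the named genes on the log2 intensity scale (horizontal axis), with the 3 Olig-labelled tumours as orange circles, the 3 LMO1 tumours as blue squares, and the range and median of the other 47 arrays in grey. The groups do not overlap for any gene shown, Csnk2a1 did not pass the test, and Numb in the Olig-labelled tumours lies below the whole grey range.

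The other 8 genes called lower were 2810459M11Rik, Cd1d2, Clasp2, Ercc4, Phkg2, Rnf146, Sfxn1 and Supt16, with log2 differences from −1.11 to −0.59. Of the 6 fits with 1 array left out, 3 called Ercc4 and 2 each called Clasp2, Rnf146, Sfxn1 and Supt16. Only 1 fit each called 2810459M11Rik and Cd1d2, and 0 called Phkg2. Cd1d2 encodes a lipid-presenting molecule of the CD1 family, Ercc4 a nuclease subunit of excision repair, and Supt16 a subunit of the FACT histone chaperone. Sfxn1, a mitochondrial serine transporter, read 9.97, 10.43 and 10.83 against 10.99, 11.79 and 11.53. Its Olig-labelled values lay at the bottom of the series, with 3 of the other 47 arrays at or below the highest of them, and its other probe set differed by −1.13. For Rnf146, a ubiquitin ligase, LMO1 replicate 3 (12.49) was apart from LMO1 replicates 1 and 2 (10.96 and 11.06), and the difference fell to −0.38 without it. The 2 other probe sets of Rnf146 differed by −0.02 and −0.03. The other probe set of Supt16 differed by 0.29 (−0.95 in the one used) and that of Ercc4 by 0.20 (−0.64 in the one used), both in the opposite direction, and those of Clasp2 by −0.49 and −0.06 (−0.78 in the one used).

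Slc15a2, a proton-coupled peptide transporter, was chosen after its values were seen because it had the largest difference of any gene. It read 7.20, 6.82 and 7.18 against 12.37, 11.39 and 11.52. The 3 LMO1 values were at the top of the series, with 2 of the other 47 arrays reaching them, and the groups were 25.9-fold apart (−4.69 ± 1.13). It did not pass in the fit on all arrays (adjusted p = 0.0517) and passed in limma on the 6 arrays alone (adjusted p = 0.0063). Its other probe set, which read 7.69 to 7.89 on all 6 arrays, differed by 0.04.

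Promoters were read for E-box sequences, since OLIG, TAL1 and E proteins bind E-boxes. The windows are the 250 bases before the RefSeq start of each gene on GRCm38.p6, and both strands were searched for CAGATG, for the palindrome CATATG, and for a further palindrome, CAGCTG. Shown are the 3 named promoters of called genes that held a match, each written 5′ to 3′ on the strand of the gene with the match in capitals. They lie at chr19:58455399-58455648 (minus strand, match 90 bases before the start), chr5:91517450-91517699 (plus strand, 28 bases) and chr10:29362443-29362692 (minus strand, 185 bases).
Gfra1: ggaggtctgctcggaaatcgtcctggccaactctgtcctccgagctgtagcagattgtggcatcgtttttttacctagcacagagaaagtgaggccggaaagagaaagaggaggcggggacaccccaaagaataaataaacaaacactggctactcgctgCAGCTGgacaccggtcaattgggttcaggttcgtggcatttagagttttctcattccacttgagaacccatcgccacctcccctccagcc
Parm1: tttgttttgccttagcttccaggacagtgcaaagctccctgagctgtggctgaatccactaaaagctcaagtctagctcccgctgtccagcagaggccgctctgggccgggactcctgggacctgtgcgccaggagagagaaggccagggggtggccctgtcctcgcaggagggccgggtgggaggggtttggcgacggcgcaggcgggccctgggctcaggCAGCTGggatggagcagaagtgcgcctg
Rnf146: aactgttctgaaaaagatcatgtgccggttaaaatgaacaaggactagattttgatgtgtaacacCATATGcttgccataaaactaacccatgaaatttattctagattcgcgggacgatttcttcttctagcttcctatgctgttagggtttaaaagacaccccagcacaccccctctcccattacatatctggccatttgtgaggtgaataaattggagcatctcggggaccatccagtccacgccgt
Gfra1 rose and Parm1 and Rnf146 fell, and Gfra1 and Parm1 hold the same motif, CAGCTG. Of the called genes with a promoter in the table, 1 of 6 that rose (16.7%) and 2 of 15 that fell (13.3%) held any of the motifs, against 21.2% of the 7382 promoters of tested genes and 27.9% of all 27025. The shares of the called genes lay below both, without a test of the difference. A match is a description of letters, and binding was not measured.

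Of the T-cell lists, the Notch list held the largest difference, that of Il2ra, but no member passed the test. Of 16 listed genes, 15 passed the filter and 11 of them were lower in the Olig-labelled tumours. The median log2 difference was −0.38, against −0.0014 over all genes tested, 4551 of which were higher. When 1 array was left out, the Notch median ran from −0.609 (without LMO1 replicate 2) to −0.33 (without Olig-labelled replicate 2). Il2ra, the interleukin-2 receptor alpha chain and a Notch-responsive marker of early thymocytes, read 8.33, 8.51 and 8.19 against 12.13, 10.45 and 12.28. The Olig-labelled values lay at the median of the other 47 arrays, 8.29, and the difference was −3.27 ± 0.90 (limma adjusted p = 0.132), with −2.43 in the other probe set. With only the 38 arrays of the largest set of like control signals in the fit, Il2ra passed (limma adjusted p = 0.0492). Nrarp, a feedback inhibitor of Notch, read 9.34, 7.77 and 9.34 against 9.99, 10.48 and 9.96 (−1.33 ± 0.63, adjusted p = 0.671). Those 2 of the 15 were the members without overlap, and 8.84% of all genes tested were lower without overlap. The receptors Notch1 and Notch3 differed by −0.60 and −0.96, the target Heyl by −1.64, the regulator Dtx1 by −1.28 and the target Hes1 by −0.55. All had overlapping groups in the probe set used and none passed. The other probe sets of Heyl differed by −1.665 and −0.863, both without overlap, and those of Notch1 and Notch3 by −0.079 and −0.435. The ligands Dll1, Dll4 and Jag2 differed by −0.06 to 0.18. Dtx1 and Heyl depended on single arrays, with differences from −1.85 to −0.76 and from −2.18 to −1.23 when 1 array was left out.

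**Figure D3:**
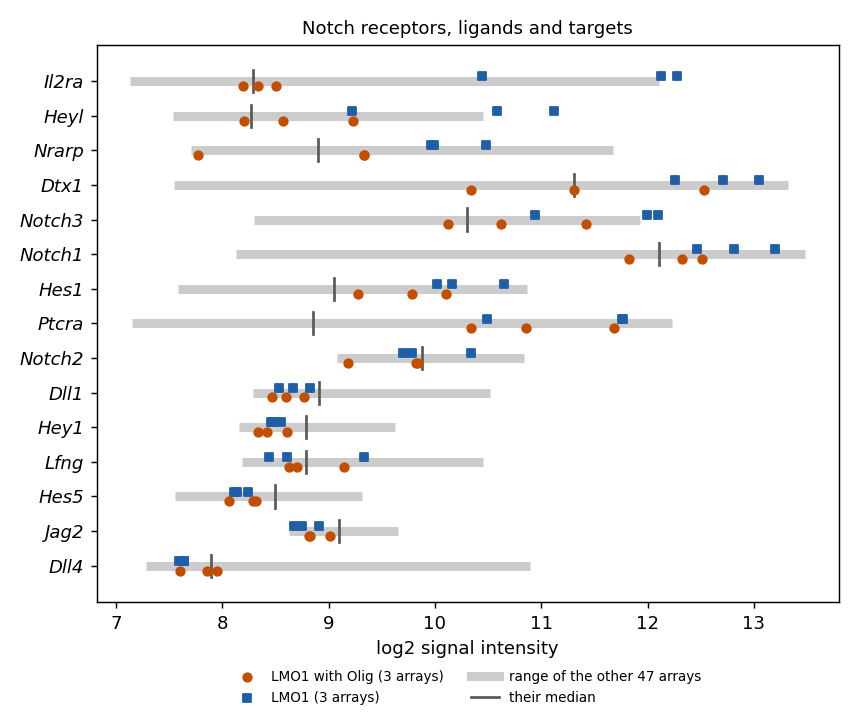
Levels of the 15 tested Notch receptors, ligands and targets on the log2 intensity scale, with symbols as in the plot of named genes and genes in order of their difference. Il2ra and Nrarp separate the groups without overlap, and none of the 15 passed the test.

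T-lineage identity genes leaned one way. All 16 tested members were lower in the Olig-labelled tumours, with a median of −0.40, 4 without overlap and none called. Over all genes tested, 8.84% were lower without overlap. The lower members numbered 16 after either rescaling of the arrays and 12 to 16 when 1 array was left out, 12 without Olig-labelled replicate 2, LMO1 replicate 1 or LMO1 replicate 3. Cd2, an adhesion receptor of T cells, read 11.10, 10.94 and 10.82 against 11.36, 11.83 and 12.39 (−0.91 ± 0.64, adjusted p = 0.934). Cd3g, a chain of the T-cell receptor complex, differed by −0.53 ± 0.54, and Cd3d and Cd7 were the other 2 without overlap. Cd5 had the largest difference of the list, −1.17, with overlapping groups. It read 7.74, 9.30 and 10.41 against 10.18, 10.45 and 10.33, with Olig-labelled replicate 1 the lowest. Its difference ran from −1.80 to −0.465 when 1 array was left out. Among the 10 mature T-cell and egress genes, 8 were lower, and Klf2, a factor that drives thymic exit genes, read 9.52, 9.51 and 9.42 against 10.17, 11.77 and 11.14 (−1.55 ± 0.51, adjusted p = 0.311). Foxo1 differed by −0.61. Of the 12 T-cell receptor response genes, 8 were lower (6 without LMO1 replicate 2 or Olig-labelled replicate 3), and Egr1, an immediate target of receptor signalling, read 8.27, 9.30 and 10.19 against 11.76, 11.72 and 10.69 (−2.13 ± 0.60, adjusted p = 0.159). Nr4a1 differed by −0.54, also without overlap. Of the 12 double-positive thymocyte genes 9 were higher, with a median of 0.24 that was 0.054 without Olig-labelled replicate 2, 0.061 without LMO1 replicate 2, 0.121 without Olig-labelled replicate 1 and 0.391 without LMO1 replicate 1. In that list, Arpp21 differed by 0.63 and Cd1d1 by −0.49. None of these passed.

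Proliferation genes leaned the other way, again without a call. Of 21 mitosis and checkpoint genes, 20 were higher in the Olig-labelled tumours, 11 without overlap, with a median of 0.40. Over all genes tested, 7.16% were higher without overlap. The higher members numbered 20 after either rescaling and 18 without Olig-labelled replicate 1, where the median was 0.29. With the beta-actin ratio in the model, 20 were higher and the median was 0.265. Cenpe, a kinesin of the kinetochore, read 9.79, 9.23 and 9.74 against 8.50, 9.08 and 8.46 (0.91 ± 0.44, adjusted p = 0.677). Kif23, a kinesin of cytokinesis, read 11.65, 10.59 and 11.15 against 10.45, 10.25 and 10.51 (0.73 ± 0.26, adjusted p = 0.397). Olig-labelled replicate 1 was the highest in both. The summed linear signal of the mitosis genes was 78282, 56903 and 57735 in the Olig-labelled tumours and 51279, 52751 and 46694 in the LMO1 tumours. Of 24 DNA replication genes, 22 were higher and 7 did not overlap, with a median of 0.20 (0.132 without LMO1 replicate 1 and 0.306 without LMO1 replicate 2). Rfc3, a clamp-loader subunit, read 10.18, 10.88 and 10.57 against 9.79, 9.50 and 9.70 (0.88 ± 0.37, adjusted p = 0.562), and Mcm5, of the replicative helicase, differed by 0.39. Among the 17 G1 cyclins, kinases and inhibitors, 11 were higher with a median of 0.18, but without Olig-labelled replicate 1, 8 were higher and 9 lower with a median of −0.062. With the beta-actin ratio in the model, the G1 median was 0.085. Ccnd1, cyclin D1, read 11.27, 10.28 and 11.23 against 8.80, 9.75 and 9.80, a difference of 1.48 ± 0.61 that all 3 of its probe sets shared (1.40 to 1.73) and that did not pass (adjusted p = 0.544). Cdk6 differed by 0.24. Of 17 ribosome biogenesis and Myc target genes, 13 were higher with a median of 0.17, and Eif4a1 differed by 0.42 and Nop58 by 0.39. Without Olig-labelled replicate 3, 8 of them were higher and 9 lower, with a median of −0.047.

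**Figure D4:**
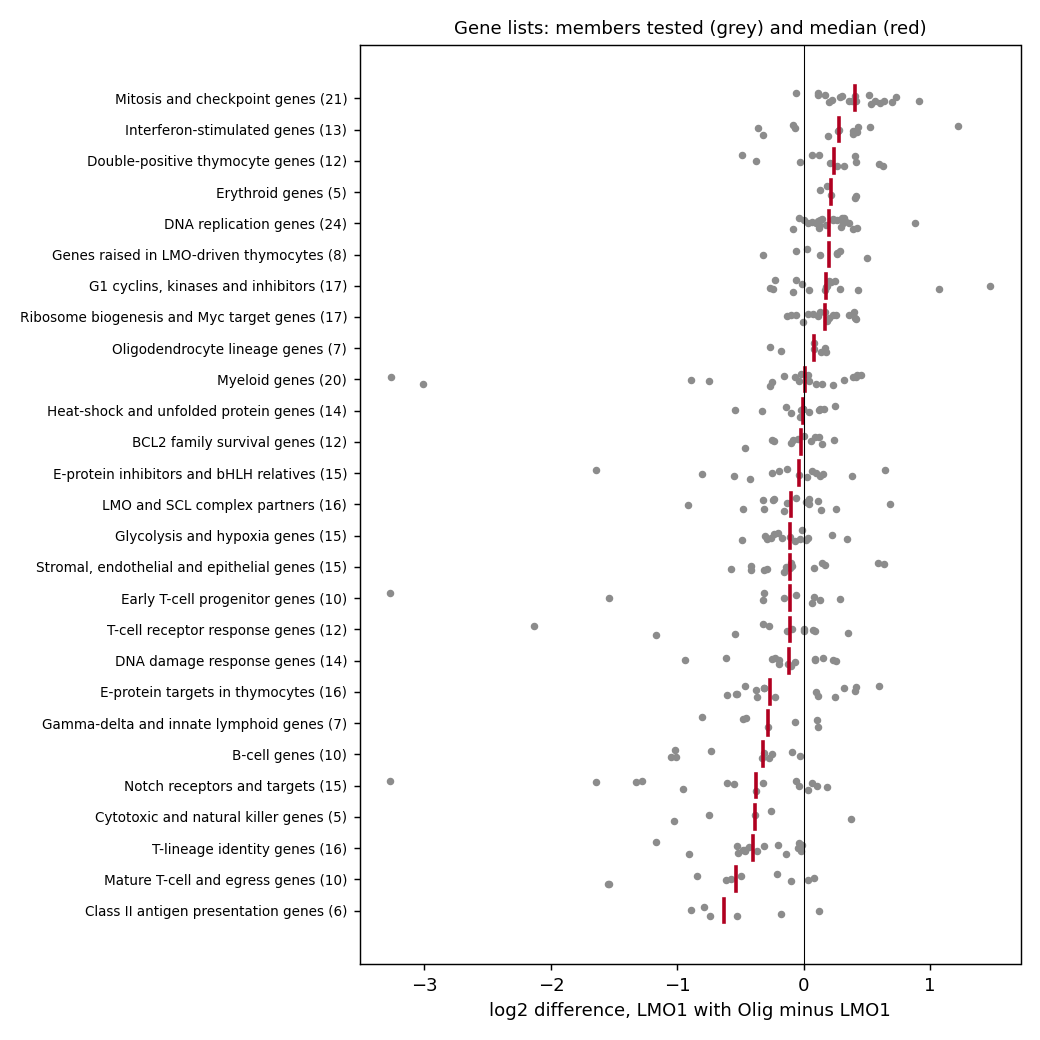
Log2 difference (Olig-labelled minus LMO1, horizontal axis) of each tested member of 27 gene lists (the skeletal muscle list, with its median of −1.30, and the sex-linked genes are not drawn), with list medians in red and the number of members tested in brackets. Of the lists drawn, mitosis genes have the highest median, 0.40, and class II antigen presentation genes the lowest, −0.63, and no grey point passed the test.

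No partner of the LMO complex was called. Of 22 listed genes 16 passed the filter, 7 were higher and 9 lower with a median of −0.10, and none was without overlap. Ldb1, the scaffold that LMO proteins bind, differed by 0.02 ± 0.24, the E-protein gene Tcf3 by −0.24 ± 0.24, and Tcf12 by −0.15 ± 0.34. The basic helix-loop-helix partner Lyl1 read 8.43, 7.81 and 8.21 against 7.87, 9.02 and 8.52 (−0.32 ± 0.43). Larger differences were those of Lmo4, −0.92 (−1.35 to −0.46 when 1 array was left out), and Ssbp2, 0.68 (0.245 to 1.15). Among the 15 tested E-protein inhibitors and helix-loop-helix relatives, 7 were higher and 8 lower, with none without overlap. Id2 differed by −0.80 and Msc by 0.64, the latter with Olig-labelled replicate 1 (11.16) apart. Of the 16 E-protein targets, 9 were lower with a median of −0.27, which lay between −0.235 and −0.018 when 1 array was left out, with 8 lower without LMO1 replicate 1 or 2. Dntt, which adds bases at receptor joints, differed by 0.41. Of 13 oligodendrocyte genes on the array, the usual setting of Olig factors, 7 passed the filter, with a median of 0.08 and none called. Of these, 5 were higher, 3 without overlap. Over all genes tested, 7.16% were higher without overlap. Sirt2 and Myrf, both without overlap, differed by 0.18 and 0.17.

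Markers of other cells differed between the arrays, and in bulk tumours fewer cells of a type cannot be told apart from less RNA per cell. Several skeletal muscle genes, from a list added after the values were seen, were high in LMO1 replicates 2 and 3. Myh4, a fast muscle myosin, read 7.90, 7.19 and 7.13 in the Olig-labelled tumours and 7.30, 11.17 and 11.70 in the LMO1 tumours. Tnnt3 read 7.71, 7.61 and 7.60 against 8.03, 9.38 and 9.66, with the same 2 arrays high. Acta1 and Casq1 were not high in LMO1 replicate 2, at 9.71 and 8.585, against 10.05 and 8.83 in Olig-labelled replicate 1. Of 16 listed, 15 were tested, 14 were lower and 8 did not overlap, with a median of −1.30, and Tnnt3 was the only member called. Over all genes tested, 8.84% were lower without overlap. The summed signal ran from 5618 to 7706 in the Olig-labelled tumours and from 7225 to 20208 in the LMO1 tumours. Without LMO1 replicate 1, the muscle genes called were Actn3, Atp2a1, Myh4, Tnnc2, Tnnt3 and Ttn, and without any 1 of the other 5 arrays, Olig-labelled or LMO1, none was. With the 38 arrays of the largest array set, 7 were called, those 6 and Ckm.

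The granulocyte genes S100a8 and S100a9 were highest on the same arrays. S100a8 read 7.56, 7.31 and 7.94 against 9.57, 11.01 and 12.02 (−3.26 ± 1.07, adjusted p = 0.31). The myeloid genes Mpo and Elane, which differed by −0.75 and −0.25, were also highest on LMO1 replicates 2 and 3. Csf3r and Itgam, which differed by 0.04 and 0.23, were highest on Olig-labelled replicate 2. The 20 myeloid genes as a whole split evenly, 10 higher and 10 lower, with a median of 0.007 and summed signals of 24313 to 28875 and 25771 to 35601. All 10 tested B-cell genes were lower (8 without LMO1 replicate 2 or Olig-labelled replicate 1), with a median of −0.33 and summed signals of 5581 to 15884 against 10793 to 19103. Cd79a, a chain of the B-cell receptor complex, read 8.11, 8.28 and 9.23 against 8.53, 10.75 and 9.50, so that LMO1 replicate 2 was apart, and its difference was −0.47 without that array. Igll1 differed by −0.32. The immunoglobulin gene Ighm differed by −0.33 in the probe set used and by −3.27 to 0.06 in its others. The one at −3.27 read 7.87, 8.12 and 8.56 against 9.14, 12.79 and 12.43, high in LMO1 replicates 2 and 3. Of 6 class II genes 5 were lower, with a median of −0.63. That median was −0.26 without Olig-labelled replicate 1 and −0.272 without LMO1 replicate 2, with 4 lower in each. It was −1.041 without LMO1 replicate 1. Cd74, the invariant chain, read 10.73, 11.34 and 11.66 against 11.11, 12.86 and 12.44. Of 15 stromal, endothelial and epithelial genes 5 were higher and 10 lower, and their summed signals overlapped, 15105 to 18409 against 13158 to 20011. The endothelial genes Cdh5 and Vwf differed by −0.58 and −0.41 and the collagen genes Col1a2 and Col3a1 by 0.63 and 0.58. The 5 erythroid genes were all higher, with Hba-a1 at 0.21 and Slc4a1 at 0.13 and summed signals of 2036 to 2909 against 1800 to 2236. The part of these other cells in the genes that were lower was not tested.

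**Figure D5:**
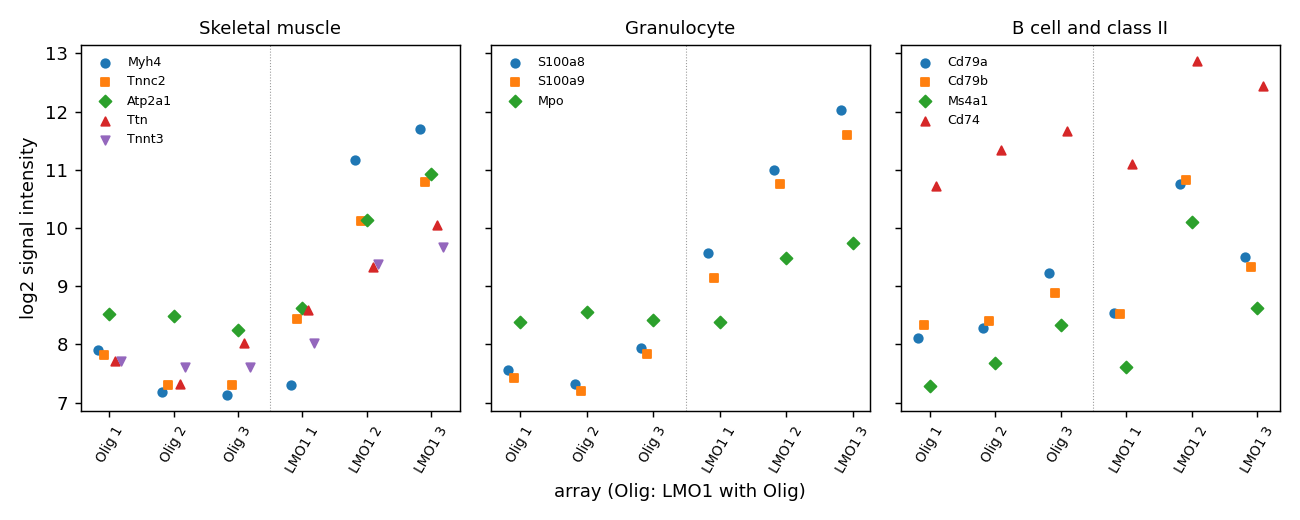
Levels (log2 intensity, vertical axis) of muscle, granulocyte and B-cell or class II genes on each of the 6 arrays (horizontal axis). The muscle and granulocyte genes shown are highest on LMO1 replicates 2 and 3, and the B-cell genes shown on LMO1 replicate 2.

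The remaining lists held no called member, and their medians ran from −0.38 (cytotoxic genes) to 0.28 (interferon-stimulated genes). Interferon-stimulated genes were higher in 9 of 13, with Oasl2 at 0.53 and Ifit3 at 0.43. Glycolysis and hypoxia genes were lower in 11 of 15 (8 without Olig-labelled replicate 2), with Pdk1 at 0.34 as the 1 member without overlap. DNA damage response genes were lower in 9 of 14, with Ccng1 at −0.61 and Gadd45b at 0.15. In the BCL2 family, 6 were higher and 6 lower, and Bak1, a pore-forming killer protein, differed by −0.46 and Bmf by 0.24. Heat-shock and unfolded protein genes were lower in 9 of 14 (4 without LMO1 replicate 2), with Ddit3 at −0.33 and Trib3 at 0.25. Cytotoxic genes were lower in 4 of 5, with Gzmk at −0.26 without overlap. Nkg7 differed by −1.02 and Ccl5 by −0.75, both with overlapping groups, and Tbx21 by 0.37. Of the 8 tested genes reported as raised in LMO-driven thymocytes, 6 were higher, with a median of 0.20 and none without overlap. Early progenitor genes were lower in 6 of 10 with a median of −0.11, and gamma-delta and innate lymphoid genes in 5 of 7 with a median of −0.28.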

How the data were processed

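Total RNA had been extracted with Trizol, labelled with biotin and put on oligonucleotide arrays (53), per the labels' protocols. The authors deposited a table of signal intensity on a linear scale for 22690 probe sets and 53 arrays. How it was normalized is not stated in the labels. Intensities were converted to log2. Probe sets with 1 gene symbol (20380) were named through the platform annotation; 691 had several symbols, 1555 none, and 64 were controls. Each of 12393 genes was represented by its probe set of highest mean, and the 9156 genes that exceeded the median of 3 or more arrays were tested. limma 3.58.1 in R 4.3.3 (lmFit, eBayes) fitted 1 mean per background over 53 arrays, two-sided, with Benjamini-Hochberg adjustment and a threshold of 0.05. A difference is always Olig-labelled minus LMO1, and its SE uses the pooled spread. In simulated data with 200 of 9156 genes changed, the fit recovered 72% of changes of 1 and 99% of changes of 2 (log2), with 11 false calls. The simulated noise was independent, with 1 spread per gene for all backgrounds. In the real arrays the median SD over genes was 0.188 in the Olig-labelled and 0.143 in the LMO1 tumours. These rates therefore cannot be carried over to the calls above.

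Called genes without overlap were named, up to 12 by size in each direction and filled to 8, leaving out unnamed transcripts and sex-linked genes; lists gave up to 2 members without overlap. Genes outside this, such as Ccnd1, Heyl and the other 9 called genes, were chosen after their values were seen. The members and lists were chosen with earlier results of these data known. Promoters are from RefSeq. No pair of arrays was a duplicate (highest correlation over all probe sets 0.9879). Tables and figures were made in Python 3.11.15 with pandas 2.3.3, NumPy 2.4.6, Matplotlib 3.10.9 and SciPy 1.17.1. Precision is limited by the number of arrays.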

Additional observations from a re-analysis of the deposited data

How the results depend on the processing

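The counts of genes moved with most choices. Higher and lower genes numbered 0 and 1 in the fit on the 6 arrays only, 14 and 43 with the 38 arrays of the largest array set, 2 and 10 with the stricter filter, 7 and 12 with the mean of all probe sets, 28 and 17 with the probe set of largest interquartile range, 4 and 14 after quantile normalization, 4 and 20 with arrays centred on their medians, and 3 and 10 with the beta-actin ratio added to the model. Leaving out 1 array gave 1 to 6 higher and 4 to 26 lower genes. Without a filter, with a trended and with a robust prior the counts stayed within 1.5 times (9 and 21, 7 and 19, 8 and 20). With the replicate number as a block, 8 and 20 genes were called, 7 and 19 of them shared; same-numbered arrays correlated at 0.219, −0.028 and −0.082, so the numbers were not taken as pairs. Adam19 passed in 17 of 18 alternatives, Numb in 16, Xpo4 in 15 and Pheta2 in 14 of 17. With the probe set of largest interquartile range, Numb differed by 0.023 and Supt16 by 0.29, the values of their other probe sets. Apart from the fits on fewer arrays or fewer genes, the cause was not tested. With arrays centred on their medians, the median of all genes was −0.024 and 4127 of 9156 genes were higher. Lmo1, Olig1 and Olig2 were not called in any alternative run.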
